A study of Mus musculus with 6 samples.

Results

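The genes described here are 10 components of the bone morphogenetic protein (BMP) pathway in mouse lens capsules after cataract surgery. They were taken by symbol: the ligands Bmp2, Bmp4 and Bmp7, the receptors Bmpr1a and Bmpr2, the secreted antagonist Grem1, and the target genes Id1, Id2, Id3 and Id4. All 10 were found among the 56940 genes of the count files, and all 10 passed the filter on low counts. RNA was sequenced from capsules with their lens epithelial cells at 72 h after the fiber mass had been taken out, and from capsules collected at 0 h. Each group had 3 libraries, and each library pooled 5 capsules. All mice were labelled C57BL/6 and wildtype, and all capsules had undergone the operation. The second eye of a mouse was operated on 72 h after the first, so eyes of the same animal could contribute to both times. The descriptions of both groups carry the tag RUNX_Cre_N, which no source used here explains. No source ties single capsules to single libraries, so the tests below measure the spread between pools.

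BMPs are secreted dimers that bring type I receptors such as Bmpr1a together with type II receptors such as Bmpr2. The receptor complex phosphorylates Smad1, Smad5 and Smad9, which enter the nucleus with Smad4. Extracellular antagonists such as gremlin 1, the product of Grem1, bind the ligands before they reach a receptor. The Id genes are direct targets of this route in many cells, and their products hold E proteins, a class of basic helix-loop-helix transcription factors, away from DNA. In the mouse, Bmp4 and Bmp7 are needed for the lens to form.

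The 72 h libraries held 8453450 to 8945397 counts in genes, and the 0 h libraries 11338820 to 12432688. The second principal component, with 14.8% of the variance, set 72 h replicate 3 apart. Levels are given in CPM, counts scaled to each library's total over tested genes after TMM adjustment. The summed level of 8 corneal and surface epithelium markers in that library was 5045 CPM, against 159 and 424 CPM in the other 72 h libraries and 803 to 1178 CPM at 0 h. Of these markers 6 were tested, with 0 called higher and 1 called lower at 72 h. Single markers differed from the sum. Krt5 was at 1107 CPM in 72 h replicate 3, 0.695 and 17.3 CPM in the other 72 h libraries and 1.02 to 11.0 CPM at 0 h. Krt12 was at 0 CPM in 72 h replicate 3 and at 0.0865 to 1.26 CPM at 0 h. Krt5, Krt12, Krt13 and Krt14 were each at or below 11.0 CPM at 0 h, so other markers made up most of the 0 h sums. Mitochondrial genes took 16.6% to 25.3% of the counts at 72 h and 3.75% to 3.91% at 0 h, and the part of this difference in the changes of the members was not tested. With mitochondrial and crystallin genes left out, each of the 10 members kept its call or lack of one. The lens epithelium markers were detected in both groups, and 8 of the 10 were lower at 72 h. Pax6, a lens transcription factor gene that was not called, had 643 ± 91.5 CPM at 72 h against 684 ± 23.0 CPM at 0 h (SD, n = 3), while Foxe3, another, had 58.4 ± 4.92 CPM at 72 h against 249 ± 8.85 CPM at 0 h.

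At 72 h the antagonist gene Grem1 was far higher than at 0 h, Bmp7 and most Id genes were lower, and the receptor genes were slightly higher. Of the 10 members, 3 rose (Grem1, Bmpr1a and Bmpr2) and 4 fell (Bmp7, Id1, Id2 and Id4) at 72 h. A call here is an adjusted p under 0.05 in the quasi-likelihood test of edgeR, with Benjamini-Hochberg adjustment over the 15407 genes that passed the filter, and every adjusted p below comes from it. Bmp2, Bmp4 and Id3 were not called. Across all tested genes 21.0% were called higher, 17.5% lower and 38.5% in either direction. The members were chosen with earlier results of these data known, so setting them beside these shares is no test of the pathway. The 72 h and 0 h values did not overlap for the 7 called members, 3 higher and 4 lower. Over all tested genes this held for 53.5%, with 26.5% higher and 26.9% lower. The median log2 change of the members was -0.42, and that of all tested genes was -0.02. The 4 falls were called in all 15 alternative settings. The rises numbered 1 to 3.

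**Figure D1:**
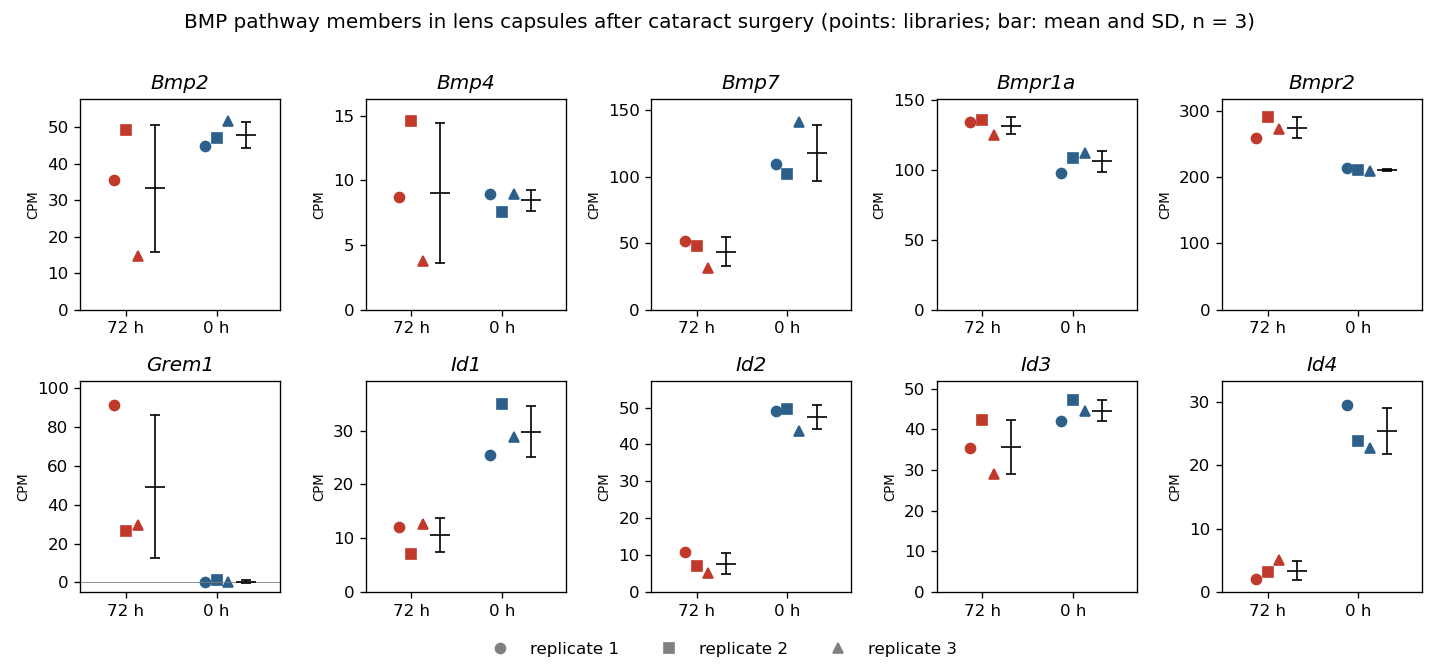
Level in CPM (vertical axes, linear) of each member in the 3 libraries of 72 h (red, left) and the 3 of 0 h (blue, right), with the symbol giving the replicate and the bar the mean and SD. The groups are separate for Bmp7, Bmpr1a, Bmpr2, Grem1, Id1, Id2 and Id4, and overlap for Bmp2, Bmp4 and Id3.

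Among the ligands, only Bmp7 (ENSMUSG00000008999) was called. Bmp7 was at 52.0, 47.7 and 31.5 CPM in the 72 h libraries, and at 110, 102 and 141 CPM in the 0 h libraries. Every 72 h library lay below every 0 h library. Bmp7 fell by 1.43 ± 0.20 on the log2 scale (SE; adjusted p = 0.000415), which is 2.69-fold lower at 72 h. Without 72 h replicate 3, its lowest library, the log2 change was -1.23.

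Bmp2 (ENSMUSG00000027358), which forms a subfamily with Bmp4, was at 35.7, 49.3 and 14.8 CPM at 72 h, and at 45.0, 47.0 and 51.7 CPM at 0 h. The 72 h libraries ran from within the 0 h range to far below it. Its log2 change was -0.53 ± 0.39 (adjusted p = 0.333). Bmp4 (ENSMUSG00000021835) was the scarcest ligand, at 8.68, 14.6 and 3.79 CPM at 72 h and 8.91, 7.53 and 8.91 CPM at 0 h. Its 72 h libraries lay on both sides of those of 0 h, and its log2 change was 0.09 ± 0.44 (adjusted p = 0.890). The sign of that change turned without 72 h replicate 2, to -0.44. For all 3 ligands the lowest of the 6 libraries was 72 h replicate 3, the library with the high surface epithelium markers. That library also had the highest mitochondrial share, 25.3% against 18.1% and 16.6% in the other 72 h libraries. The part of these features in the ligand values was not tested. Without that library the log2 change was -0.16 for Bmp2 and 0.47 for Bmp4, and neither was called.

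The receptor genes rose by small amounts. Bmpr2 (ENSMUSG00000067336), the type II receptor, was at 259, 291 and 273 CPM at 72 h and at 213, 210 and 209 CPM at 0 h. The 0 h libraries agreed within a few CPM and all lay below those of 72 h. Bmpr2 rose 1.30-fold (log2 change 0.38 ± 0.09, adjusted p = 0.00877). Bmpr1a (ENSMUSG00000021796), a type I receptor for Bmp2 and Bmp4, was at 134, 136 and 124 CPM at 72 h and at 97.6, 108 and 112 CPM at 0 h. It rose 1.24-fold (log2 change 0.31 ± 0.10, adjusted p = 0.0351). This call was lost in 9 of 15 alternatives, and over all 15 its adjusted p ranged from 0.0109 to 0.186. The losses included the fits in which any single library other than 72 h replicate 3 was left out, and those with upper quartile scaling (adjusted p = 0.111), library size alone (adjusted p = 0.110) and no filter (adjusted p = 0.0940). The call of Bmpr2 was lost without 0 h replicate 2 (adjusted p = 0.0501; 0.000651 to 0.0501 over the alternatives).

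Grem1 (ENSMUSG00000074934) showed the widest change. It had 792, 230 and 244 counts at 72 h, and 0, 15 and 0 counts at 0 h. In CPM these were 91.7, 26.6 and 29.8 at 72 h and 0, 1.27 and 0 at 0 h, where 0 counts allow up to 0.259 CPM in replicate 1 and 0.237 CPM in replicate 3 (3 counts per library, counting error only). All 72 h libraries were above all 0 h libraries, and 72 h replicate 1 was well above the other two of its group. The fitted log2 change was 6.84 ± 1.28 (adjusted p = 0.0120). All 15 counts of 0 h came from 1 library. Without it the fitted log2 change was 11.93, a value that rests on the prior count. Against a floor of 3 counts over the remaining pair of 0 h libraries, the pooled 72 h level was at least 402-fold higher. That bound holds for this pair only, and the ratio to all 0 h libraries was lower, with the fitted log2 change of 6.84 given above. It also leans on 72 h replicate 1, which gave 792 of the 1266 pooled counts. Without 72 h replicate 1 the log2 change was 6.03, and without 0 h replicate 3 it was 6.24.

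The Id genes encode small helix-loop-helix proteins without a basic region, so they pair with E proteins and cannot bind DNA. Id2 (ENSMUSG00000020644) was at 10.8, 7.16 and 5.14 CPM at 72 h and at 49.1, 49.5 and 43.5 CPM at 0 h. It fell by 2.62 ± 0.26 on the log2 scale (adjusted p = 3.91e-05), 6.15-fold. Id4 (ENSMUSG00000021379) was at 1.97, 3.12 and 5.01 CPM at 72 h, and at 29.5, 23.8 and 22.8 CPM at 0 h. It fell by 2.91 ± 0.34 (adjusted p = 0.000126), 7.53-fold, with 85 counts over the 72 h libraries and 911 over those of 0 h. Without 72 h replicate 3 the log2 change was -2.39 for Id2 and -3.30 for Id4. In both genes the highest 72 h library was far below the lowest of 0 h.

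Id1 (ENSMUSG00000042745) was at 12.2, 7.05 and 12.6 CPM at 72 h and at 25.5, 35.0 and 28.9 CPM at 0 h. It fell by 1.49 ± 0.26 on the log2 scale (adjusted p = 0.00147), 2.81-fold, with no overlap between the groups. Id3 (ENSMUSG00000007872) was at 35.5, 42.4 and 29.0 CPM at 72 h and at 42.1, 47.2 and 44.6 CPM at 0 h. Its groups overlapped, since 72 h replicate 2 was above 0 h replicate 1. The log2 change was -0.32 ± 0.17 and was not called (adjusted p = 0.153). Its sign was the same in all 15 alternatives, where the adjusted p ranged from 0.0511 to 0.344. In bulk libraries, fewer cells that carry a transcript and less of it per cell cannot be told apart.

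**Figure D2:**
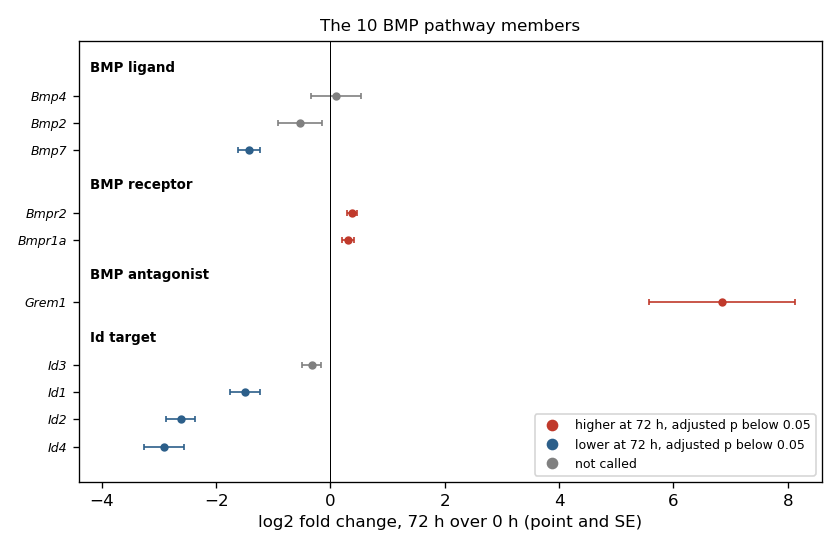
Log2 fold change of 72 h over 0 h (horizontal axis) of each member, with its SE, grouped by role and coloured by the call. Bmp7, Id1, Id2 and Id4 lie left of 0, the receptors lie just right of it, and Grem1 lies at 6.84 with the widest SE.

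The makeup of the Id pool shifted. Scaled by exon length, the 4 genes summed to 33.1 ± 2.43 CPM per kilobase at 72 h and to 76.6 ± 5.53 at 0 h (SD, n = 3). Id3 held 56.3%, 70.7% and 53.1% of that sum in the 72 h libraries, and 32.1%, 31.8% and 33.8% in those of 0 h. Id2 held 12.5%, 8.77% and 6.92% at 72 h and 27.5%, 24.5% and 24.3% at 0 h. Id4 held 2.72% ± 1.44 at 72 h and 8.65% ± 1.59 at 0 h. The share of Id1 overlapped between the groups, at 27.8% ± 8.91 at 72 h and 33.4% ± 3.18 at 0 h. These shares do not depend on library scaling. The ratio of Id3 to Id2 per kilobase was 4.49, 8.06 and 7.68 at 72 h and 1.17, 1.30 and 1.39 at 0 h.

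**Figure D3:**
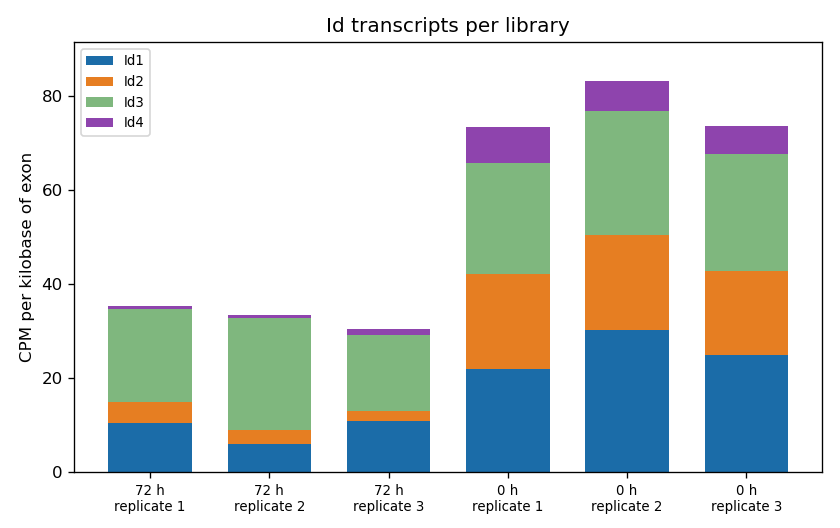
Summed level of Id1, Id2, Id3 and Id4 in CPM per kilobase of exon (vertical axis) in each library, stacked by gene, with 72 h on the left. The sums lie between 30.4 and 35.2 at 72 h and between 73.3 and 83.0 at 0 h, and Id3 is the largest layer in every 72 h library.

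Promoter windows are shown for Id2 and Id4, which fell, and Grem1, which rose, because BMP Smads are known to bind GC-rich elements near their targets. Each is the 250 bases before the RefSeq start on GRCm38.p6, in the direction of the gene. The windows lie at chr12:25096093-25096342 on the minus strand for Id2, chr13:48260866-48261115 on the plus strand for Id4 and chr2:113758649-113758898 on the minus strand for Grem1. Capitals mark GGCGCC and GGAGCC, searched on both strands.
Id2: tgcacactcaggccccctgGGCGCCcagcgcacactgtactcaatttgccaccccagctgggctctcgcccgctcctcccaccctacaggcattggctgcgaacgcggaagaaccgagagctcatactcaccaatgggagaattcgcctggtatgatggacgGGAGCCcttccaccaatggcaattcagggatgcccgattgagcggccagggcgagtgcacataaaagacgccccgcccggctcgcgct
Id4: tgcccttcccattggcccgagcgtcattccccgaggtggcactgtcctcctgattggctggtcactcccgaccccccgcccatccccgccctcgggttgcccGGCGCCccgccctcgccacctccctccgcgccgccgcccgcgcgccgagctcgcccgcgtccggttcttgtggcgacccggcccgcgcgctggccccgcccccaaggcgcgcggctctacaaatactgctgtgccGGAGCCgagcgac
Grem1: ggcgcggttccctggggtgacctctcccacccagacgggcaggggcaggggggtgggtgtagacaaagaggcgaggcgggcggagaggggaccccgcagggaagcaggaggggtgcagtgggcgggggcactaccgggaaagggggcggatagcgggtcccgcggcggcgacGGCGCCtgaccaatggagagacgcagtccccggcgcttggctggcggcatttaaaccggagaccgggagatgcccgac

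The first G of GGCGCC stood 231 bases before the start in Id2, 148 in Id4 and 78 in Grem1, so a gene that rose and genes that fell both hold it. A window was matched for 7 of the 10 members, all except Bmp2, Bmp7 and Id1. GGCGCC was in 5 of the 7 (Bmpr1a, Bmpr2, Grem1, Id2 and Id4) and in 9.59% of 32851 promoter windows of the same length. GGAGCC, on either strand, was in 4 of the 7 (Bmp4, Id2, Id3 and Id4) and in 26.0% of all windows. The matched windows were rich in G and C, at 62.8% to 78.8%, against a median of 52.4% over all windows. These matches describe the letters alone.

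Levels per kilobase of exon put the members on a common scale. At 72 h the order was Bmpr1a (20.7 ± 0.968 CPM per kilobase), Id3 (19.9 ± 3.75), Bmpr2 (15.2 ± 0.880), Grem1 (11.9 ± 8.84), Bmp7 (10.9 ± 2.68), Bmp2 (9.36 ± 4.89), Id1 (9.14 ± 2.66), Bmp4 (4.01 ± 2.40), Id2 (3.15 ± 1.17) and Id4 (0.875 ± 0.400). At 0 h it was Bmp7 (29.3 ± 5.22 CPM per kilobase), Id1 (25.7 ± 4.13), Id3 (24.9 ± 1.43), Id2 (19.4 ± 1.37), Bmpr1a (16.7 ± 1.18), Bmp2 (13.5 ± 0.978), Bmpr2 (11.7 ± 0.117), Id4 (6.59 ± 0.939), Bmp4 (3.76 ± 0.353) and Grem1 (0.102 ± 0.177). At 72 h, Bmpr1a and Id3 did not differ beyond their SDs, nor did Grem1 and Bmpr2, the run of Grem1, Bmp7, Bmp2 and Id1, or Bmp4 and Id2. Grem1 varied so much that it did not differ beyond the SDs from any other member except Id4, and Bmp2 and Bmp4 overlapped in the same way. At 0 h, Bmp7, Id1 and Id3 did not differ beyond theirs. Bmp7 and Id1 were thus among the top levels at 0 h and in the middle at 72 h.

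The rest of the pathway moved in both directions. Of 61 other genes listed, 40 passed the filter on low counts, and of these 15 rose and 14 fell, with a median log2 change of -0.08 against -0.02 for all tested genes. These were 37.5% and 35.0% of the tested members of the lists, against 21.0% and 17.5% of all tested genes. The lists were chosen with earlier results of these data known, so these shares are no test of the pathway.

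Of 12 other ligand genes of the BMP and GDF families only Gdf10 and Bmp6 passed the filter. Gdf10, a relative of Bmp3, was at 0.347, 2.89 and 0 CPM at 72 h and at 64.5, 71.7 and 52.8 CPM at 0 h. It fell by 5.83 ± 0.90 on the log2 scale (adjusted p = 0.00509). Without 72 h replicate 2, which held 25 of its 28 counts at 72 h, it fell by 8.38, a size that rests on few counts. Bmp6 averaged 3.46 ± 2.42 CPM at 72 h and 0.792 ± 0.602 CPM at 0 h, with overlapping groups and no call (adjusted p = 0.0893). It was called by DESeq2 (adjusted p = 0.0495) and without 72 h replicate 2 (adjusted p = 0.0399), within 0.0399 to 0.227 over its alternatives.

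Among 8 tested receptors and coreceptors, 3 rose and 3 fell. Acvr1, a type I receptor used by Bmp7, was at 69.2, 66.7 and 56.7 CPM at 72 h and at 22.1, 22.9 and 27.6 CPM at 0 h. It rose 2.65-fold (log2 change 1.41 ± 0.15, adjusted p = 7.61e-05). Acvr2b, a type II receptor, averaged 16.1 ± 2.20 CPM at 72 h against 46.1 ± 3.25 CPM at 0 h, and fell by 1.51 ± 0.17 on the log2 scale. Bmpr1b, the type I receptor closest to Bmpr1a, was at 1.74, 0.116 and 0.245 CPM at 72 h and at 3.03, 4.99 and 4.26 CPM at 0 h. It fell by 2.52 ± 0.86 (adjusted p = 0.0413), or by 4.44 without 72 h replicate 1. Its call was lost without 72 h replicate 2 or any single 0 h library (adjusted p = 0.0800 to 0.141; 0.00351 to 0.141 over the alternatives). The coreceptor gene Rgma fell too, by 0.88 ± 0.16.

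The other rises in that list were Acvrl1 and Eng, a receptor and a coreceptor best known from endothelium. Acvrl1 was at 3.82, 5.55 and 13.8 CPM at 72 h and at 1.73, 0.339 and 0.237 CPM at 0 h. Its log2 change was 3.32 ± 0.81, against 4.68 when 0 h replicate 1 was left out and 2.61 when 72 h replicate 3 was. Eng averaged 5.96 ± 1.45 CPM at 72 h against 0.790 ± 0.462 CPM at 0 h (log2 change 2.90 ± 0.59). Of 10 vascular endothelium markers 4 were tested and edgeR called 0, with 1 (Egfl7, lower) at an unadjusted p under 0.05. Their log2 changes were 1.55 ± 0.82 for Pecam1, -0.48 ± 0.58 for Vwf, -0.82 ± 0.48 for Kdr and -2.83 ± 1.14 for Egfl7. Below the filter, Cdh5 (58 counts at 72 h, 13 at 0 h) and Tek (53 and 15) were mostly in 72 h replicate 2. Tie1, Emcn, Cldn5 and Esam were lower in mean CPM at 72 h. The list summed to 9.29 to 24.5 CPM at 72 h and 11.0 to 22.2 CPM at 0 h. The part of endothelial cells in the rises of Acvrl1 and Eng was not tested.

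**Figure D4:**
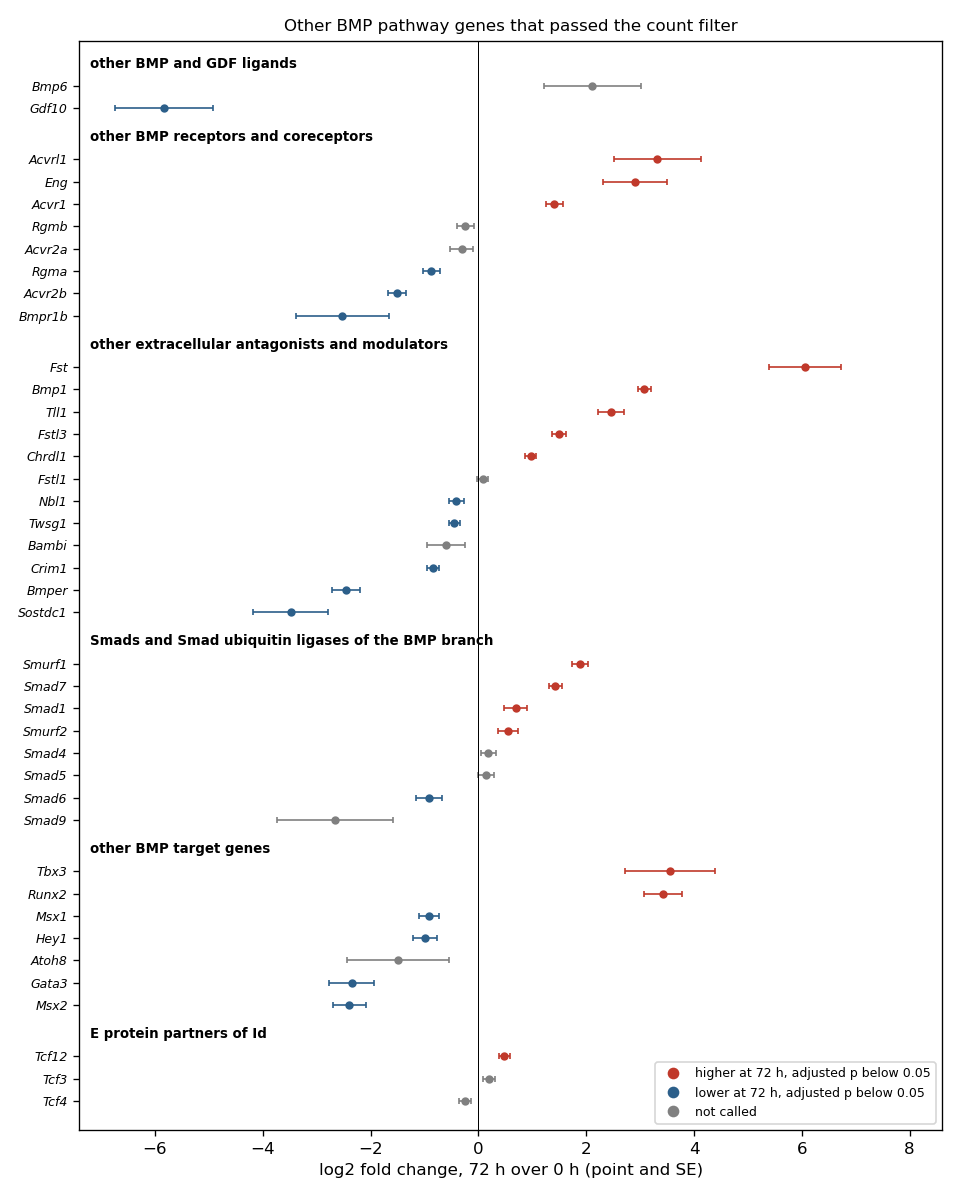
Log2 fold change of 72 h over 0 h (horizontal axis) with its SE for the 40 other pathway genes that passed the filter, grouped by list and coloured by the call. Rises (red) and falls (blue) occur in the lists of receptors, antagonists, Smads and targets, with Fst at 6.06 and Gdf10 at -5.83 at the ends.

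The list of other extracellular antagonists and modulators divided evenly, with 5 of 12 tested members higher and 5 lower. It mixes secreted antagonists with membrane proteins (Bambi and Crim1) and proteases (Bmp1 and Tll1). Fst, which encodes the activin and BMP binding protein follistatin, was at 8.80, 12.6 and 14.1 CPM at 72 h and at 0, 0.169 and 0.316 CPM at 0 h. Its log2 change was 6.06 ± 0.67 (adjusted p = 8.77e-05), and 6.91 without 0 h replicate 3. Fstl3, a relative of follistatin, rose by 1.50 ± 0.13, and Chrdl1, which encodes a chordin-like BMP antagonist, rose by 0.97 ± 0.10. The proteases encoded by Bmp1 and Tll1, which cleave chordin and procollagens, rose as well. Bmp1, despite its name no BMP ligand, averaged 1187 ± 127 CPM at 72 h against 140 ± 14.5 CPM at 0 h (log2 change 3.08 ± 0.12, adjusted p = 1.45e-07). Tll1 rose by 2.47 ± 0.24.

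The falls in that list were Sostdc1, Bmper, Crim1, Twsg1 and Nbl1. Bmper, which encodes a secreted BMP-binding protein, was at 4.51, 7.97 and 6.73 CPM at 72 h and at 30.8, 32.7 and 42.0 CPM at 0 h, a fall of 2.45 ± 0.26 on the log2 scale (adjusted p = 6.10e-05). Sostdc1, a BMP and Wnt antagonist gene, fell by 3.48 ± 0.70, and it fell by 4.31 without 72 h replicate 2. Crim1, a BMP-binding membrane protein gene that mouse lens development needs, was the most abundant gene of the list at 0 h in CPM, with 1579 ± 231 CPM at 72 h against 2840 ± 21.0 CPM at 0 h, and fell by 0.85 ± 0.11. Twsg1 fell by 0.45 ± 0.10 and Nbl1 by 0.41 ± 0.14, and the call of Nbl1 was lost in 7 of 15 alternatives. The pseudoreceptor gene Bambi averaged 9.85 ± 3.71 CPM at 72 h against 14.9 ± 4.29 CPM at 0 h, and it was not called (adjusted p = 0.202).

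Of the 8 genes for Smads and their ubiquitin ligases, 4 rose and 1 fell. The 2 inhibitory Smads went in opposite directions. Smad6, which mainly restrains BMP signals, was at 18.2, 30.0 and 15.3 CPM at 72 h and at 37.5, 42.8 and 39.2 CPM at 0 h, a fall of 0.91 ± 0.24 on the log2 scale (adjusted p = 0.0134). Smad7, which restrains both TGF-beta and BMP signals, was at 123, 101 and 123 CPM at 72 h and at 43.1, 43.6 and 42.5 CPM at 0 h, a rise of 1.42 ± 0.12 (adjusted p = 1.63e-05). The call of Smad6 was lost without 0 h replicate 2 (adjusted p = 0.0592; 0.000213 to 0.0592 over the alternatives).

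Smurf1, a ubiquitin ligase for Smad1 and Smad5, rose by 1.89 ± 0.15 (adjusted p = 8.60e-06). Smurf2 rose by 0.55 ± 0.19, a call lost in 7 of 15 alternatives. Smad1, a signal carrier of the pathway, was at 29.4, 29.5 and 48.4 CPM at 72 h and at 23.3, 20.9 and 22.2 CPM at 0 h (log2 change 0.69 ± 0.22, adjusted p = 0.0298), and its call was lost without 72 h replicate 3 or any single 0 h library (adjusted p = 0.0693 to 0.116; 0.00860 to 0.116 over the alternatives). Without 72 h replicate 3 the log2 change of Smad1 was 0.42. Smad5, another carrier, averaged 76.9 ± 13.2 CPM at 72 h against 70.2 ± 6.17 CPM at 0 h, with no call (adjusted p = 0.519). Smad9 was at 0.116, 0 and 2.57 CPM at 72 h and at 5.71, 6.18 and 5.05 CPM at 0 h. Its groups did not overlap, but it was not called (log2 change -2.66 ± 1.07, adjusted p = 0.0827). Of its 22 counts at 72 h, 21 were in replicate 3, and without that library the log2 change was -6.33 and was called (adjusted p = 6.05e-05). It was also called by DESeq2 (log2 change -2.64, adjusted p = 0.0310) and by limma voom (log2 change -4.29, adjusted p = 0.0150). Its adjusted p lay within 6.05e-05 to 0.192 over its alternatives.

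Other genes known as BMP targets fell for 4 of 7 tested and rose for 2. Msx2, a homeobox gene, was at 5.21, 2.77 and 4.65 CPM at 72 h and at 18.7, 24.5 and 23.3 CPM at 0 h, a fall of 2.39 ± 0.30 on the log2 scale (adjusted p = 0.000195). The homeobox gene Msx1 fell by 0.91 ± 0.18, and the transcription factor gene Hey1 fell by 0.99 ± 0.23. Gata3 fell by 2.35 ± 0.41, and it fell by 3.00 without 72 h replicate 2. Runx2, a transcription factor of bone formation, was at 33.2, 44.9 and 41.0 CPM at 72 h and at 2.42, 2.54 and 5.99 CPM at 0 h, a rise of 3.43 ± 0.35 (adjusted p = 5.62e-05). Tbx3 rose by 3.55 ± 0.84, and by 4.80 without 0 h replicate 1.

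The E protein genes, whose products the Id proteins bind, moved little. Tcf12 rose (log2 change 0.48 ± 0.11, adjusted p = 0.00599), with 137 ± 10.9 CPM at 72 h against 97.7 ± 7.59 CPM at 0 h. Tcf3 had a log2 change of 0.20 ± 0.11 and Tcf4 of -0.24 ± 0.11, and neither was called. Tcf4 was called lower with upper quartile scaling (adjusted p = 0.0440) and without 72 h replicate 1 (adjusted p = 0.0313), within 0.0313 to 0.301 over its alternatives. The groups did not overlap for either of these uncalled genes, with Tcf3 higher and Tcf4 lower at 72 h.

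Markers of other cell types differed between the groups too. Of 16 macrophage and monocyte markers, all tested, 13 were higher at 72 h, and their sum was 251 to 463 CPM at 72 h and 36.3 to 55.6 CPM at 0 h. Of 12 neutrophil markers 5 were tested and 4 were higher, with sums of 67.1 to 213 CPM at 72 h and 1.02 to 3.47 CPM at 0 h, and with Ly6g, Ngp, Camp and Elane at 0 counts throughout. Of 8 fibroblast and keratocyte markers 6 were tested, 4 were higher and 1 lower, with sums of 753 to 1458 CPM at 72 h and 248 to 341 CPM at 0 h. Dpt had 0 counts throughout and Kera had 0 counts at 0 h. The highest neutrophil sum was that of 72 h replicate 3, where Ltf alone gave 135 CPM, and the other 72 h libraries summed to 115.1 and 67.1 CPM.

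Most lens markers were lower at 72 h. Of 10 lens epithelium markers 8 were lower, with sums of 8675 to 15264 CPM at 72 h and 59964 to 62980 CPM at 0 h. Most of these sums came from the crystallin gene Cryaa, at 6893 to 13402 CPM at 72 h and 56400 to 59316 CPM at 0 h. All 9 tested lens fiber markers were lower. Retinal photoreceptor markers were lower for 9 of 10, at 67.3 to 184 CPM at 72 h and 748 to 1845 CPM at 0 h. The lists of T and NK cells (0 of 8 tested), pericytes (1 higher and 2 lower of 5 tested), pigment epithelium (3 lower of 7) and glia (3 lower of 5) complete the set. The part of these cell types in the values of the members was not tested.

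The genes nearest in profile to the most clearly called member in each direction were taken by the root mean square difference of centred log2 CPM over the 6 libraries, among 12782 tested protein-coding genes with an approved symbol. Nearest to Id2 were Negr1 (0.11), Cntnap2 (0.15) and Osbp2 (0.19). Nearest to Bmpr2 were Myl6 (0.03), Limk2 (0.03) and Ewsr1 (0.04). Since the difference between the 2 times makes up most of each profile, a near profile says little more than a like change.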

How the data were processed

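The authors deposited raw counts of reads per Ensembl gene, as whole numbers with no normalization. The submitters' processing notes name HISAT2, HTSeq, edgeR and the GRCm39 build. Per the labels' protocols, the Takara SMARTer Stranded Pico v2 chemistry was used on total RNA. Versions, annotation and strand setting are not given in the sources used here. Antisense genes that overlap Bmp4, Bmpr1a and Id4 had 0 to 26 counts in total. The 5 closing lines of unassigned reads (48.0% to 51.7% of reads at 72 h and 41.9% to 45.2% at 0 h) were left out.

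Symbols (51947 of 56940 identifiers) and exon lengths came from GENCODE M21, which is on another build. Genes were kept by filterByExpr (minimum count 10, total 15), scaled by TMM and tested two-sided with edgeR 4.0.16 (R 4.3.3) and no replicate term. Fold changes use a prior count of 0.125, and SEs come from the fold change and F. The code was tested on simulated data. No 2 libraries agreed within sampling noise (chi-square per degree of freedom at least 7.44).

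The members and lists were chosen with earlier results of these data known. The text names all members, the called gene with the smallest p in each direction of each pathway list, and 9 set genes. Other called genes were named after their values were seen. DESeq2 1.42.0 and limma 3.58.1 served as alternatives.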

Additional observations from a re-analysis of the deposited data

How the results depend on the processing

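Over 15 alternative settings the fall of 4 members was called in each, and the number of members that rose was 3 in the reported fit, 1 with the replicate number as a block (replicate block), and 1 to 3 when single libraries were left out. With the block only Bmpr2 was called higher, and Grem1 (adjusted p = 0.0772) and Bmpr1a (adjusted p = 0.0751) were not. No source used here says that replicate numbers pair the samples. The deviations of same-numbered libraries correlated at -0.04, 0.06 and -0.01, and not every library correlated best with its own number. With 3 pools in each group, these values cannot decide whether libraries were paired. The log2 change of Bmp4 was -0.084 with limma voom, -0.079 with the block and -0.44 to 0.47 when single libraries were left out. That of Fstl1, not called at 0.08, was -0.0080 with upper quartile scaling, and -0.012 to 0.12 when single libraries were left out. The cause was not tested. With limma voom the log2 change was 8.33 for Grem1 and -7.18 for Gdf10. Of 150 single values of the members, 136 kept direction and side of the threshold, 11 lost the call and 3 turned sign. No scaling moved the median of all genes by more than 0.09. Genes with few counts, such as Grem1 at 0 h, are limited by depth.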

Other observations

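Several genes listed as extracellular antagonists and modulators had too few counts to be tested. Sost, which encodes sclerostin, had 0, 0 and 0 counts at 72 h and 3, 32 and 14 counts at 0 h. Nog, which encodes noggin, had 0, 1 and 0 counts at 72 h and 1, 5 and 9 counts at 0 h. Chrd, which encodes chordin, the substrate of the Bmp1 protease, had 4, 9 and 1 counts at 72 h and 7, 16 and 7 counts at 0 h.

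The ratio of Grem1 to Bmp4 transcripts per kilobase was 5.72, 0.989 and 4.27 in the 72 h libraries and 0, 0.0913 and 0 in the 0 h libraries. The ratio of Bmp4 to Bmp7 was 0.299, 0.545 and 0.215 at 72 h and 0.145, 0.132 and 0.113 at 0 h, with no overlap between the groups. Ratios within a library are free of its scaling and show unequal change between the genes, not which of them changed.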
